A study of Mus musculus with 8 samples.

Results

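The genes that take up, store and release iron were followed in bulk RNA-seq of sorted bone marrow cells, labelled stem cells, from a mouse model of chronic myeloid leukemia (CML). 8 genes were chosen by name for their roles in iron handling, with earlier results of these data known (Tfrc, Steap3, Fth1, Ftl1, Ncoa4, Hmox1, Ireb2 and Aco1). All 8 were found among the 15576 genes of the count table, and all 8 passed the filter on low counts. The libraries came from bone marrow of C57BL/6 mice with CML, either left untreated (CML, 4 libraries) or given imatinib, a tyrosine kinase inhibitor (TKI) that blocks BCR-ABL (CML-TKI, 4 libraries). The model is the double transgenic BCR-ABL×SCL-tTA mouse, in which a stem cell-active SCL promoter drives the tetracycline transactivator, so that withdrawal of tetracycline switches BCR-ABL on; both groups carry it, and normal mice were not analysed here. Imatinib was given by gavage on alternate days at 400 mg/kg for 4 weeks according to the labels of the CML-TKI samples, whereas the study's text gives a lower dose for this RNA-seq comparison, so the dose behind these libraries is uncertain. Age was not given in the sources used here.

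Iron enters blood cells mainly as transferrin-bound iron through the transferrin receptor, is reduced in the endosome and then used in the cytosol and mitochondria, while any excess is held in ferritin, a shell of heavy and light chains. Iron leaves ferritin when the shell is delivered to lysosomes by its autophagy receptor, and heme iron is freed by heme oxygenase. The whole system is tuned after transcription: when iron is short, iron regulatory proteins bind a short hairpin of the mRNA called the iron-responsive element, which protects the mRNA of the transferrin receptor from decay and blocks translation of the ferritin mRNAs. RNA-seq therefore reads part of this control for the receptor, and does not read the translational part for ferritin.

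The hairpins are shown because the control element is known for the mRNAs of the receptor and of both ferritin chains, whose levels are compared below. They were searched for as a C bulge, 5 bases, the loop CAGTGN and 5 bases that pair with the first 5 (G-T pairs allowed), on the sense strand only, in the untranslated regions of 1 GENCODE M21 transcript for each gene (GRCm38). Capitals mark the loop in each 30-base window, printed 5′ to 3′. Tfrc carried 4 matches in its 3′ untranslated region on the plus strand of chromosome 16, at chr16:32631219-32631248, chr16:32631598-32631627, chr16:32631663-32631692 and chr16:32631710-32631739.
Tfrc element 1: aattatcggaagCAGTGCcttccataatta
Tfrc element 2: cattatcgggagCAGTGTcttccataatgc
Tfrc element 3: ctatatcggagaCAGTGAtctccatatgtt
Tfrc element 4: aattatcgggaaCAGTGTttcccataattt
Fth1, at chr19:9982732-9982761 on the plus strand, and Ftl1, at chr7:45459778-45459807 on the minus strand, carried 1 match each in the 5′ untranslated region.
Fth1 element: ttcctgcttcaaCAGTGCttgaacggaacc
Ftl1 element: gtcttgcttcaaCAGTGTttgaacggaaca
The same pattern was found in the 5′ untranslated region of 21 of 19198 genes (0.109%) and in the 3′ untranslated region of 108 of 19282 genes (0.56%), and 1 gene, Tfrc, held 4 or more in the latter. No match was found in Steap3, Ncoa4, Hmox1, Ireb2 or Aco1, which says only that these letters are not in those windows.

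Before the genes are described, some properties of the libraries bear on every value. The labels give a Lin-Sca1+cKit+Flt3-CD150-CD48+ gate for all 8 libraries, whereas the study's text places leukemic stem cells in the CD150+CD48- gate. In the data, Slamf1, which encodes CD150, was lower in CML-TKI (log2 fold change -3.42, edgeR adjusted p = 0.00797), Cd48 was higher (4.35, adjusted p = 8.7e-04) and Kit was lower (-1.92, adjusted p = 8.7e-04), while Ly6a, which encodes Sca1 (adjusted p = 0.373), and Flt3 (adjusted p = 0.522) did not pass the test. The CML-TKI libraries are therefore named by their group and not as stem cells. Total counts ranged from 4939644 to 8620101 in CML and from 1041552 (CML-TKI 3) to 5104268 in CML-TKI, and the ribosomal RNA gene Rn45s took between 9.23% and 38.3% of them. The fourth CML column is named 5, which no label gives, and is called CML 5. CML 1, 2 and 3 were much closer to each other (chi-square per gene between 3.70 and 4.93) than any other pair of libraries (25.97 or more), and CML 5 had little Mki67, the Ki-67 proliferation antigen (52.7 CPM, against 630.3 to 723 in CML 1 to 3). In bulk samples, fewer cells of a type and less RNA per cell cannot be told apart.

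Markers of other blood cells differed between the groups too. For comparison, 6.29% of all genes tested were called higher and 3.93% lower in CML-TKI (edgeR adjusted p under 0.05). Higher in CML-TKI were 13 of 15 granulocyte markers, led in level by Mpo, Elane and Prtn3 (summed level 201 to 323 CPM in CML and 1535 to 8609 CPM in CML-TKI), and 11 of 12 monocyte and macrophage markers, led by Lyz2, F13a1 and Ccr2 (242 to 331 CPM against 1459 to 7418 CPM). Of the markers of hematopoietic stem cells, among them Hlf and Meis1, 4 of 11 tested were lower (summed level 1308 to 1538 CPM in CML and 26.96 to 428 CPM in CML-TKI), and of the 8 megakaryocyte markers, whose highest levels were those of Vwf, Itga2b and Selp, 2 were lower, Itga2b and Gp9 (the latter named after its values were seen), while Vwf and Selp did not pass. Of the B and T cell markers, among them Cd79b and Pax5, 0 of 2 tested were called, and their summed level was 19.1 to 26.3 CPM in CML and 24.3 to 324 CPM in CML-TKI. Any gene described below as higher in all 4 CML-TKI libraries, Tfrc included, moved with the granulocyte and monocyte lists, and the part of cell composition in the results was not tested.

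Tfrc, the transferrin receptor, rose in the CML-TKI libraries and was the gene of the 8 that passed the test. Levels are given in CPM, counts scaled to the TMM-adjusted library size. In the untreated group Tfrc stood at 104 CPM in CML 1, 79.7 CPM in CML 2, 80.6 CPM in CML 3 and 59.7 CPM in CML 5, and in the treated group at 177 CPM in CML-TKI 1, 294 CPM in CML-TKI 2, 213 CPM in CML-TKI 3 and 471 CPM in CML-TKI 4. All 4 CML-TKI libraries lay above every CML library, and CML-TKI 4 was the highest of all, 2.66 times the lowest of its group. The mean rose from 80.9 ± 18.03 to 289 ± 131 CPM (SD, n = 4 each), a log2 fold change of 1.84 (SE 0.33, 95% interval 1.10 to 2.57) or 3.57-fold, with an adjusted p of 0.00847 in edgeR's quasi-likelihood test. Without CML-TKI 4 the gene still passed, and over the 8 fits that each left out 1 library its log2 fold change lay between 1.49 and 2.01, with adjusted p between 0.00216 and 0.036. With CML 1, 2 and 3, the libraries closest to each other, summed to 1 library, it was 1.93 and did not pass (edgeR adjusted p = 0.131). The gene spans chr16:32608920-32632794, and the counts behind it ran from 194 to 1809.

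Of all 11937 genes tested, 10.2% passed the threshold (6.29% higher and 3.93% lower in CML-TKI), so that 1 called gene of 8 (12.5%) is a share near that of all genes. Groups did not overlap, with CML-TKI higher, for Tfrc and Aco1, that is for 2 of the 8, against 10.3% of all genes, and for 0 of the 8 with CML-TKI lower, against 13.1% of all genes. The log2 fold change was above 0 for 7 of the 8, with a median of 0.57, against -0.00026 over all genes tested.

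**Figure D1:**
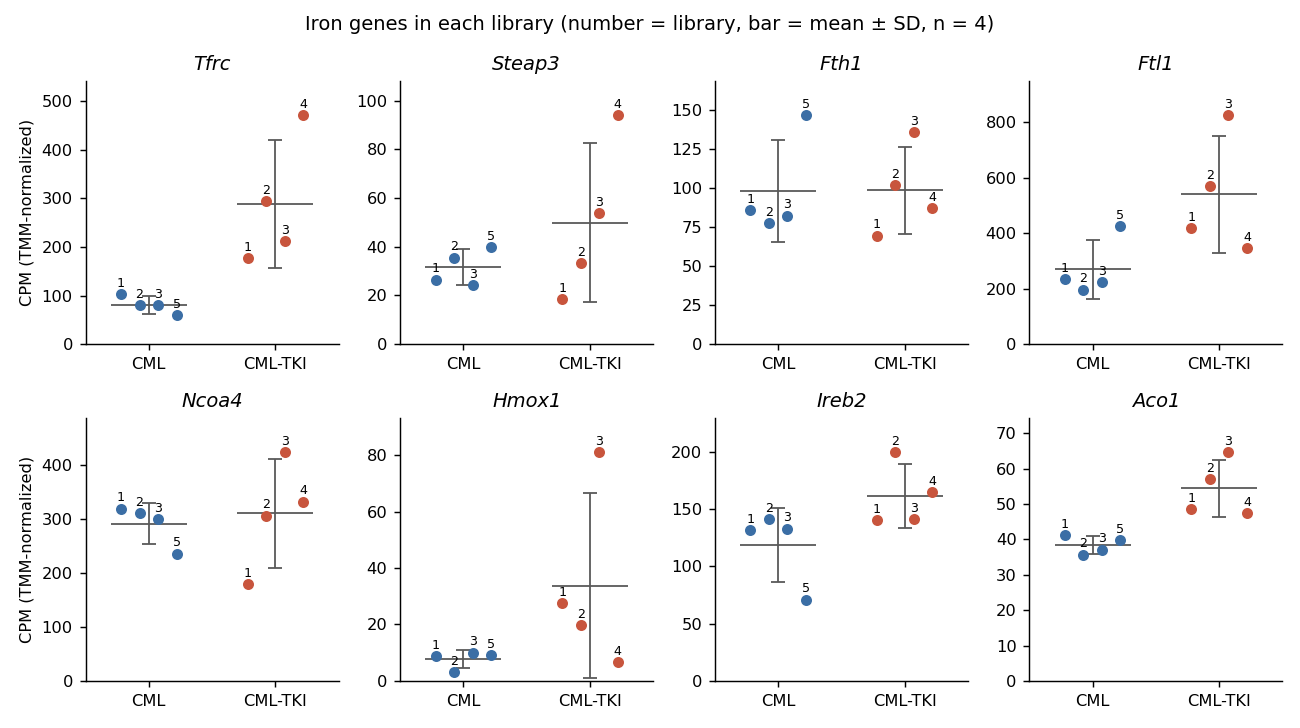
Level of each of the 8 iron genes (CPM, TMM-normalized, linear axis from 0) in the 4 CML and 4 CML-TKI libraries; points are libraries marked by number, lines are means and bars SD. For Tfrc every CML-TKI point (177 to 471 CPM) stands above every CML point (59.7 to 104 CPM), and the highest points of Hmox1 (81.1 CPM, CML-TKI 3) and Steap3 (93.9 CPM, CML-TKI 4) stand away from the rest.

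Transferrin receptor is a gene of dividing and of erythroid cells, and markers of both were examined beside it. Of 15 proliferation genes, led by Mki67, Top2a and Mcm5, 4 were called (26.7%), all higher in CML-TKI, against 6.29% of all genes called higher. They were Rrm2, a subunit of ribonucleotide reductase (log2 fold change 2.13, edgeR adjusted p = 0.0038), Birc5, the mitotic survivin (1.75, 0.0119), Bub1, a spindle checkpoint kinase (1.24, 0.0175), and Ccna2, cyclin A2 (0.95, 0.0262). The summed level of the 15 ran from 1965 to 2809 CPM in CML and from 3154 to 4777 CPM in CML-TKI, and its part in the Tfrc result was not tested. The erythroid markers split the CML-TKI libraries. Their summed level was 732 to 917 CPM in CML and 118 to 50908 CPM in CML-TKI, with 1 of 14 tested called (7.14%, against 10.2% of all genes), Slc4a1, the band 3 anion exchanger (4.13, adjusted p = 0.033).

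CML-TKI 3 held globin mRNA at a level far above the others: Hba-a1 was 19625 CPM there and between 6.76 and 110 CPM in the other 7 libraries, and Hba-a2 (13552 CPM) and Hbb-bs (11924 CPM) stood out in the same library. CML-TKI 4 lay above every CML library for 13 of the 16 erythroid markers in the table and was the highest of all libraries for 6, some of them named here after their values were seen: Ermap was 200 CPM (at most 38.6 CPM elsewhere) and Klf1, the erythroid Kruppel-like factor, was 64.3 CPM (at most 14.0 CPM elsewhere). Others of the list were not highest there: the erythroid factor Gata1 was 44.2 CPM in CML-TKI 4 and 49.5 to 94.6 CPM in CML, and Car2, a carbonic anhydrase, was 365 CPM and 486 to 592 CPM. CML-TKI 2, with Tfrc at 294 CPM, lay below every CML library for 10 of the 16, of which 4 had 0 counts (Klf1 and Rhag among them, which allows up to 0.930 CPM by counting error alone), and above every CML library for 5, Hba-a1 (29.1 CPM) and Alas2 (4.34 CPM) among them. The part of erythroid cells in the Tfrc result was not tested beyond these values. With CML-TKI 3 and 4 both left out, an alternative chosen after seeing the data, Tfrc rose by a log2 fold change of 1.53 (edgeR adjusted p = 0.0312) and remained the called gene of the 8.

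Steap3 encodes the endosomal ferrireductase that turns ferric into ferrous iron after transferrin uptake, so that it works with the receptor. Its level was 26.6, 35.5, 24.3 and 40.0 CPM in CML 1, 2, 3 and 5, and 18.6, 33.2, 53.7 and 93.9 CPM in CML-TKI 1 to 4. The groups overlapped: CML-TKI 1 was the lowest of all 8 libraries and CML-TKI 4, which was also the highest for Tfrc and for Ermap, was the highest. Its log2 fold change of 0.65 (SE 0.45, 95% interval -0.36 to 1.66) did not pass edgeR's test (adjusted p = 0.404), and it was -0.30 (adjusted p = 0.63) when CML-TKI 3 and 4 were left out. Without CML-TKI 4 alone it was 0.12, and without CML-TKI 1 it was 0.93, and neither fit passed. The highest CML-TKI library was 5.05 times the lowest, against 1.64 times within CML. Steap3 lies at chr1:120190757-120272705 on the minus strand.

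The iron sensors did not pass the test. Ireb2 encodes IRP2, an RNA-binding protein removed by degradation when iron is plentiful, and Aco1 encodes IRP1, which is a cytosolic aconitase when it holds an iron-sulfur cluster and binds RNA when it does not. Ireb2 was 131, 141, 133 and 71.1 CPM in CML 1, 2, 3 and 5, and 141, 200, 141 and 165 CPM in CML-TKI 1 to 4. CML 5 was low, and 3 of the 4 CML-TKI libraries lay above every CML library, of which CML-TKI 3 (141.4 CPM) was nearly tied with CML 2 (141.1 CPM). Its log2 fold change was 0.44 (SE 0.26, 95% interval -0.13 to 1.02, edgeR adjusted p = 0.313). With 1 library left out it lay between 0.25, without CML 5, and 0.53. Ireb2 lies at chr9:54863789-54912530.

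Aco1 was 41.3, 35.7, 37.1 and 39.7 CPM in CML 1, 2, 3 and 5, and 48.6, 57.0, 64.7 and 47.3 CPM in CML-TKI 1 to 4. The 4 CML libraries were tightly grouped (38.5 ± 2.51 CPM, SD) and all 4 CML-TKI libraries lay above them (54.4 ± 8.07 CPM). For Aco1 the log2 fold change of 0.49 (SE 0.22, 95% interval 0.01 to 0.98) had an edgeR adjusted p of 0.185, between 0.136 and 0.384 when 1 library was left out, so the absence of overlap did not carry through adjustment over all genes. Aco1 lies at chr4:40143081-40198338. The ratio of Ireb2 to Aco1 within a library ran from 1.79 (CML 5) to 3.95 (CML 2) in CML and from 2.19 to 3.51 in CML-TKI, a log2 difference of -0.015 (exact two-sided permutation p = 0.914, adjusted over 4 ratios 0.943).

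No storage gene passed the test. The mean level of the ferritin heavy chain was 98.3 ± 32.6 CPM in CML and 98.7 ± 28.1 CPM in CML-TKI (SD, n = 4 each), and that of the light chain 269.9 ± 105 and 539.5 ± 211 CPM. Fth1, the ferritin heavy chain that oxidizes iron for storage, was 86.1, 77.6, 82.5 and 147 CPM in CML 1, 2, 3 and 5, and 69.7, 102, 136 and 87.4 CPM in CML-TKI 1 to 4. The highest library was CML 5 and the lowest CML-TKI 1, so the groups overlapped. Its fitted log2 fold change was -0.0028 (SE 0.29, 95% interval -0.64 to 0.64, edgeR adjusted p = 0.997); the interval spans a fold from 0.641 to 1.55, and the sign turned with total-count scaling (0.065). The gene lies at chr19:9980598-9985098.

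Ftl1, the ferritin light chain that helps form the iron core, was 234, 196, 223 and 426 CPM in CML 1, 2, 3 and 5, and 418, 569, 824 and 347 CPM in CML-TKI 1 to 4. CML 5 stood apart from the other CML libraries and above CML-TKI 1 and 4, so the groups overlapped by that library. Ftl1 had a fitted log2 fold change of 0.997 (SE 0.34, 95% interval 0.24 to 1.75) and did not pass edgeR's test (adjusted p = 0.0946). Without CML 5 it was called (1.30, adjusted p = 0.0442), and it was also called by DESeq2 (adjusted p = 0.04) and by limma-voom with sample quality weights (adjusted p = 0.00309). Without CML-TKI 3, the library with the globins, it was 0.73 (edgeR adjusted p = 0.183), and over all alternatives its adjusted p ran from 0.00309 to 0.544. Both ferritin chains have many processed copies in the mouse genome, and how the authors' counting assigned reads shared with such copies is not given in the sources used here, so their counts are uncertain to that extent. The gene lies at chr7:45457944-45459884.

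The balance between the ferritin chains, which does not depend on how a library is scaled, separated the groups. The count ratio of Fth1 to Ftl1 was 0.368, 0.395, 0.37 and 0.344 in CML 1, 2, 3 and 5, and 0.167, 0.179, 0.165 and 0.252 in CML-TKI 1 to 4. Every CML-TKI library lay below every CML library, CML 5 included, and CML 5 was high for both chains. The ratio was 1.97-fold lower in CML-TKI, a log2 difference of -0.97, with an exact two-sided permutation p of 0.0286, the smallest that 70 relabelings allow, and 0.0571 after adjustment over 4 ratios, above the threshold. The test treats the 8 libraries as exchangeable, although CML 1, 2 and 3 were much closer to each other than any other pair. If those 3 are not independent, its p is too small, and the ratios were not tested with CML 1 to 3 summed. Leaving out 1 library at a time kept the log2 difference between -1.12 and -0.91.

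**Figure D2:**
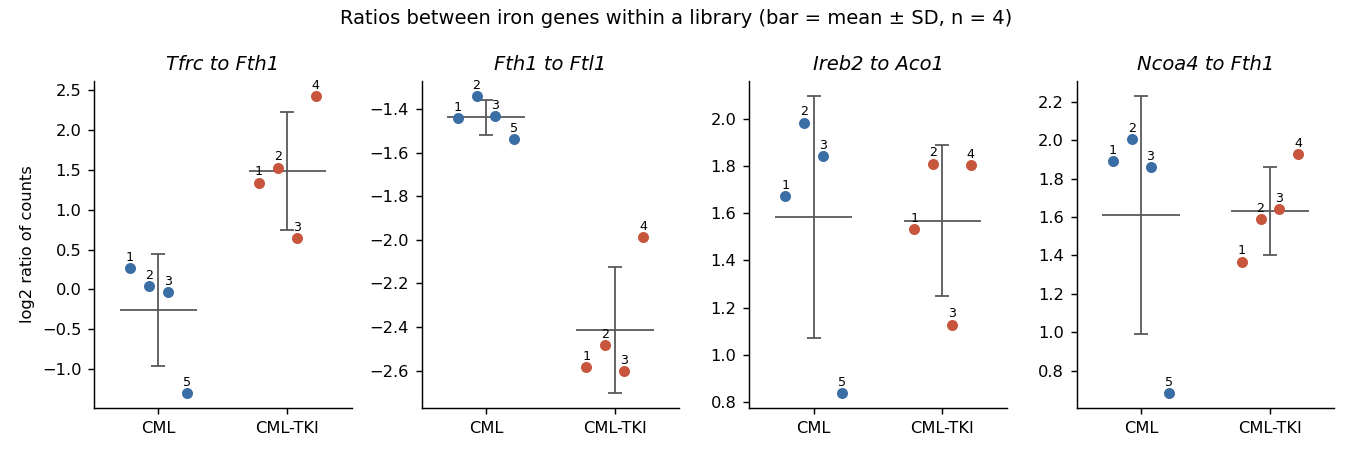
Within-library log2 ratios of counts for 4 pairs of iron genes, with a point for each library (numbered), the mean as a line and SD as bars. The ratio of Fth1 to Ftl1 runs from -1.54 to -1.34 in CML and from -2.60 to -1.99 in CML-TKI with no overlap, as does Tfrc to Fth1 in the opposite direction, whereas the other ratios overlap.

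Tfrc and Fth1 carry the iron-responsive element at opposite ends of their mRNA, and their ratio sets uptake against storage. It was 1.21, 1.03, 0.977 and 0.406 in CML 1, 2, 3 and 5, and 2.53, 2.89, 1.56 and 5.38 in CML-TKI 1 to 4. All CML-TKI libraries lay above all CML libraries, with CML 5 the lowest and CML-TKI 4 the highest. The ratio was 3.35-fold higher in CML-TKI (log2 difference 1.74, exact two-sided permutation p = 0.0286, adjusted over 4 ratios 0.0571), and lay between 1.39 and 2.02 on the log2 scale when 1 library was left out. The limit of this test given for Fth1 to Ftl1 holds here too. The mean level of Fth1 was 98.3 CPM in CML and 98.7 CPM in CML-TKI, so the ratio restates the Tfrc difference on a scale free of library size.

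Ncoa4 is the receptor that carries ferritin to lysosomes (ferritinophagy), the step that sets stored iron free. It was 319, 311, 300 and 236 CPM in CML 1, 2, 3 and 5, and 180, 306, 424 and 332 CPM in CML-TKI 1 to 4. CML-TKI 1 was the lowest and CML-TKI 3 the highest of all libraries, so both extremes were in the same group. The log2 fold change was 0.089 (SE 0.27, 95% interval -0.50 to 0.68, edgeR adjusted p = 0.871) and its sign turned with upper quartile scaling and with total counts without Rn45s. The ratio of Ncoa4 to its cargo Fth1 was between 1.61 and 4.01 in CML and between 2.58 and 3.801 in CML-TKI, with CML 5 the lowest (log2 difference 0.021, exact two-sided permutation p = 0.943). The gene lies at chr14:32159865-32179855.

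Hmox1 encodes heme oxygenase 1, the stress-inducible enzyme that opens heme and frees its iron. It was 8.72, 3.09, 10.05 and 9.07 CPM in CML 1, 2, 3 and 5, and 27.5, 19.8, 81.1 and 6.76 CPM in CML-TKI 1 to 4. CML-TKI 1, 2 and 3 lay above every CML library, whereas CML-TKI 4 fell among them. Its log2 fold change was 2.08 (SE 0.70, 95% interval 0.52 to 3.64) and did not pass edgeR's test (adjusted p = 0.0906); the CML-TKI libraries spanned 11.99-fold. It was called without CML-TKI 4 (adjusted p = 0.04) and by DESeq2 (adjusted p = 0.0201). Without CML-TKI 3 the value was 1.23 (edgeR adjusted p = 0.2), with limma-voom 1.16 (adjusted p = 0.218), and the counts behind it were 16 to 145. The gene lies at chr8:75093621-75100589.

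CML-TKI 3, the highest for Hmox1 and for Ftl1, was also the library with the globins. Markers of iron-recycling macrophages, the cells that clear old red cells, were highest in CML-TKI 3 for 7 of the 10 in the table besides Hmox1, and all 10 lay above every CML library there. C1qb was 30.7 CPM in CML-TKI 3 and at most 4.16 CPM in the other libraries, and Cd5l was 19.7 CPM and at most 1.37 CPM. Of that list, led by Axl, Slc40a1 and Vcam1 and also holding Hmox1, 0 of 5 tested were called and the summed level was 50.4 to 85.9 CPM in CML and 361, 126, 334 and 157 CPM in CML-TKI 1 to 4. The 3 that peaked in another library were Axl, Vcam1 and Slc40a1. Axl, a receptor for dying cells, was 305 CPM in CML-TKI 1 and at most 28.5 CPM elsewhere, and Vcam1, an adhesion molecule, was 60.1 and 44.9 CPM in CML-TKI 4 and 2 and at most 28.5 CPM elsewhere. CML-TKI 1 and 2, which were above every CML library for Hmox1 as well, lay above every CML library for 2 and 3 of these 10 markers and below every one for 5 and 7. The part of these cells in the Hmox1 and Ftl1 levels was not tested beyond these values.

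**Figure D3:**
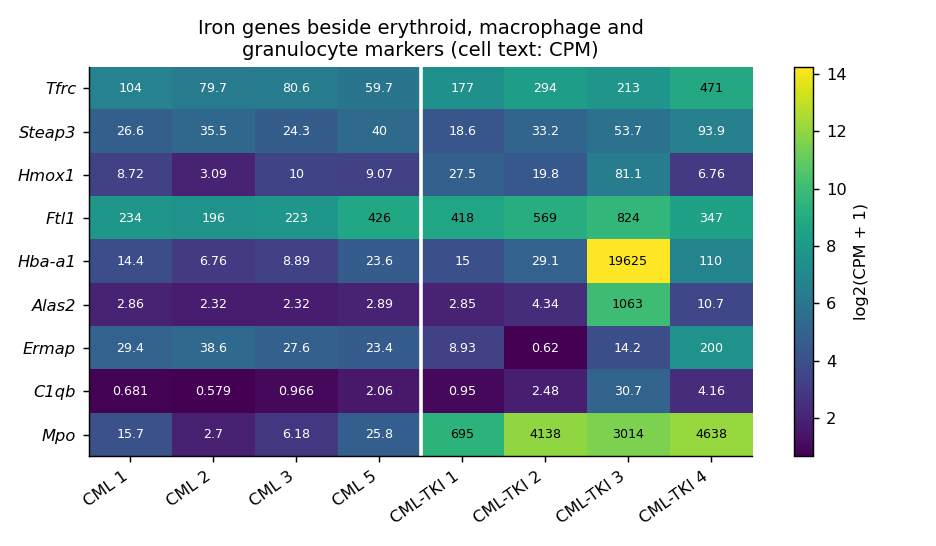
Heat map of CPM (color, log2(CPM + 1); printed values, CPM) for 4 iron genes and 5 marker genes in each library, the markers chosen after their values were seen. Hba-a1 and Alas2 are high in CML-TKI 3, where Hmox1 and Ftl1 peak, Ermap in CML-TKI 4, where Tfrc and Steap3 peak, and Mpo is higher in all 4 CML-TKI libraries (695 to 4638 CPM) than in any CML library (at most 25.8 CPM).

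Among the 8 genes, levels per kilobase of transcript were compared within each group. In CML the order was Ftl1 (279 CPM per kb), Fth1 (106), Ncoa4 (71.7), Ireb2 (20.6), Tfrc (16.6), Aco1 (10.03), Steap3 (6.13) and Hmox1 (4.93). The ranges of neighbours did not overlap except for Ireb2 with Tfrc and Steap3 with Hmox1. In CML-TKI the order was Ftl1 (557 CPM per kb), Fth1 (106), Ncoa4 (76.4), Tfrc (59.0), Ireb2 (28.03), Hmox1 (21.5), Aco1 (14.2) and Steap3 (9.66), and Ftl1 from Fth1 and Tfrc from Ireb2 were the neighbours whose ranges did not overlap. Tfrc stood below Ireb2 in all 4 CML libraries and above it in all 4 CML-TKI libraries.

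**Figure D4:**
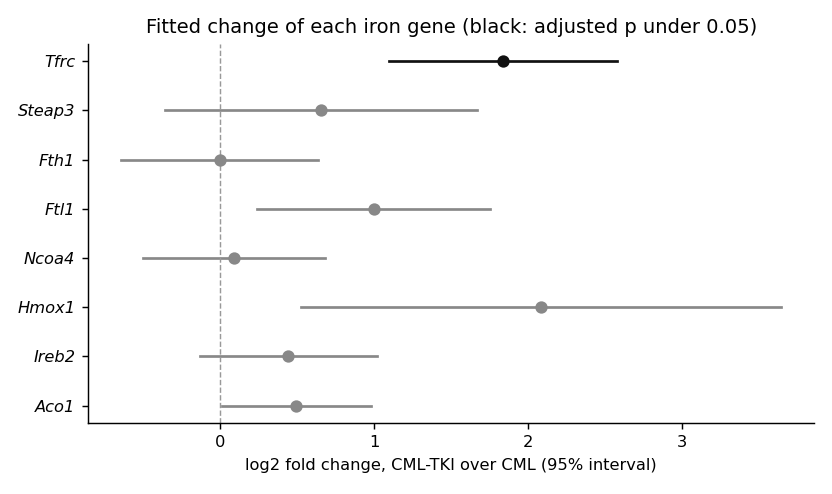
Fitted log2 fold change of each iron gene (CML-TKI over CML, edgeR) with its 95% interval as a line; black marks an adjusted p under 0.05. Tfrc (1.84, interval 1.10 to 2.57) is the black point, and the intervals of Ftl1, Hmox1 and Aco1 lie above 0 before adjustment for the number of genes tested. With Tfrc, 4 of the 8 had an unadjusted edgeR p under 0.05, against 25.7% of all genes tested.

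The genes whose pattern over the 8 libraries was nearest to that of Tfrc, among 5457 genes averaging 5 or more in log2 CPM, were Tiam1, a guanine nucleotide exchange factor for Rac (Pearson r of log2 CPM 0.98), and Hbs1l, a ribosome rescue factor (0.97). Tiam1 was 65.7 to 94.5 CPM in CML and 129 to 185 CPM in CML-TKI (log2 fold change 0.89, SE 0.22, edgeR adjusted p = 0.0292). Hbs1l was 69.3 to 96.8 CPM in CML and 108 to 185 CPM in CML-TKI (0.89, SE 0.23, adjusted p = 0.04). These likenesses describe 8 libraries in 2 groups, which share depth and composition, and either gene was called in 2 of 8 fits with 1 library left out, losing its call without any 1 CML library, CML-TKI 2 or CML-TKI 4.

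The wider iron network was counted over 7 lists of 114 symbols, of which 104 were in the table and 93 were tested. 10 of the 93 were called (10.8%), 7 higher and 3 lower in CML-TKI, near the 10.2% of all genes tested, and 9 of 85 (10.6%) without the 8 genes. These counts moved with single libraries: without CML 1, 2, 3 or 5 the number called was 5, 5, 5 and 7, with 0 lower in each, without CML-TKI 1 it was 20 (15 higher and 5 lower), and with CML 1 to 3 summed it was 2. Hp, Lrp1, Lcn2, Alas1 and Tfrc were called in all 8 fits that left out 1 library, and of these Hp and Lrp1 also with CML 1 to 3 summed. In the uptake and import list 3 of 14 were called, all higher: Tfrc, Trf and Lcn2. Trf, transferrin itself, was 24.5 to 45.8 CPM in CML and 293, 73.8, 199 and 60.6 CPM in CML-TKI 1 to 4 (log2 fold change 2.26, edgeR adjusted p = 0.0203, at most 0.073 with 1 library left out and lost without CML 1, 2 or 3). Lcn2, a siderophore-binding protein of neutrophil granules that is also on the granulocyte list, was 11.002 to 20.9 CPM in CML and 31.5 to 230 CPM in CML-TKI (2.82, adjusted p = 0.0112).

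Other uptake genes did not pass. Slc11a2, the ferrous iron transporter DMT1, was 27.6 to 39.9 CPM in CML and 19.7 to 62.4 CPM in CML-TKI (log2 fold change 0.26, SE 0.40, edgeR adjusted p = 0.736). Slc25a37, the mitochondrial iron importer mitoferrin 1, was 1003 CPM in CML-TKI 3, the library with the globins, and 55.8 to 97.3 CPM in the other 7 (2.27, SE 0.84, adjusted p = 0.122). Tfr2, the second transferrin receptor, named here after its values were seen, was 115 to 174 CPM in CML and 2.79 to 50.7 CPM in CML-TKI, which did not overlap, in the direction opposite to Tfrc, with an adjusted p of 0.0506 (-2.17, SE 0.61).

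In the storage list 0 of 7 were called by edgeR, and Ftl1 was the 1 gene with an unadjusted p under 0.05. Pcbp1 and Pcbp2, chaperones that bring iron to ferritin, had log2 fold changes of 0.044 (edgeR adjusted p = 0.941) and 0.28 (adjusted p = 0.437). In the export list 1 of 4 was called, Hfe, the hemochromatosis protein that binds the transferrin receptor, at 4.36 to 8.11 CPM in CML and 9.88 to 60.3 CPM in CML-TKI (2.15, adjusted p = 0.0435, called in 2 of 8 fits with 1 library left out, where it was lost without any 1 CML library, CML-TKI 2 or CML-TKI 3). Slc40a1, the iron exporter ferroportin, was 12.4 to 16.6 CPM in CML and 6.08, 46.5, 65.8 and 67.6 CPM in CML-TKI 1 to 4, so CML-TKI 1 lay below all CML libraries and the other 3 above (1.69, SE 0.59, adjusted p = 0.101).

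In the regulation list 1 of 15 was called, Zfp36, tristetraprolin, an mRNA decay factor, lower at 6.24 to 21.9 CPM in CML-TKI against 39.2 to 84.1 CPM in CML (-1.80, edgeR adjusted p = 0.0288). That call was lost without any 1 of the CML libraries (adjusted p up to 0.081). Fbxl5, the iron-sensing ubiquitin ligase subunit that removes IRP2, had a log2 fold change of 0.60 (adjusted p = 0.243), Bach1, the heme-sensing repressor of Hmox1, -0.23 (adjusted p = 0.599), and Nfe2l2, the activator NRF2 that competes with it, 0.38 (adjusted p = 0.469). All 3 had groups that overlapped.

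In the heme breakdown and transport list 3 of 16 were called. Hp, haptoglobin, which binds free hemoglobin, was 4.83 to 16.8 CPM in CML and 100.5 to 439 CPM in CML-TKI (log2 fold change 4.75, edgeR adjusted p = 0.00148). Lrp1, a scavenger receptor that takes up hemopexin-bound heme, was 4.63 to 23.0 CPM and 207 to 429 CPM (4.66, adjusted p = 0.00181). Pgrmc1, a heme-binding membrane protein, was lower, 82.9 to 98.2 CPM in CML and 43.8 to 65.7 CPM in CML-TKI (-0.82, adjusted p = 0.0335), and was called in 1 of 8 fits with 1 library left out, that without CML-TKI 1 (adjusted p up to 0.107 in the others). Hmox2, the constitutive heme oxygenase, was 28.7 to 35.9 CPM in CML and 12.1 to 27.9 CPM in CML-TKI, again without overlap and in the direction opposite to Hmox1, and did not pass (-0.66, adjusted p = 0.215).

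In heme synthesis 1 of 13 was called, Alas1, the housekeeping first enzyme of the pathway, at 23.9 to 39.0 CPM in CML and 71.2, 278, 355 and 261 CPM in CML-TKI 1 to 4 (log2 fold change 3.06, SE 0.45, edgeR adjusted p = 0.00319). Alas2, its erythroid counterpart, named after its values were seen, was 1063 CPM in CML-TKI 3 and at most 10.7 CPM in the other libraries (6.65, SE 1.94, adjusted p = 0.0573). In iron-sulfur cluster assembly 1 of 24 was called, Hscb, the co-chaperone that hands over new clusters, lower at 1.24 to 5.70 CPM in CML-TKI against 12.9 to 22.8 CPM in CML (-2.27, adjusted p = 0.0271), a call lost without any 1 of the CML libraries (adjusted p up to 0.0884).

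**Figure D5:**
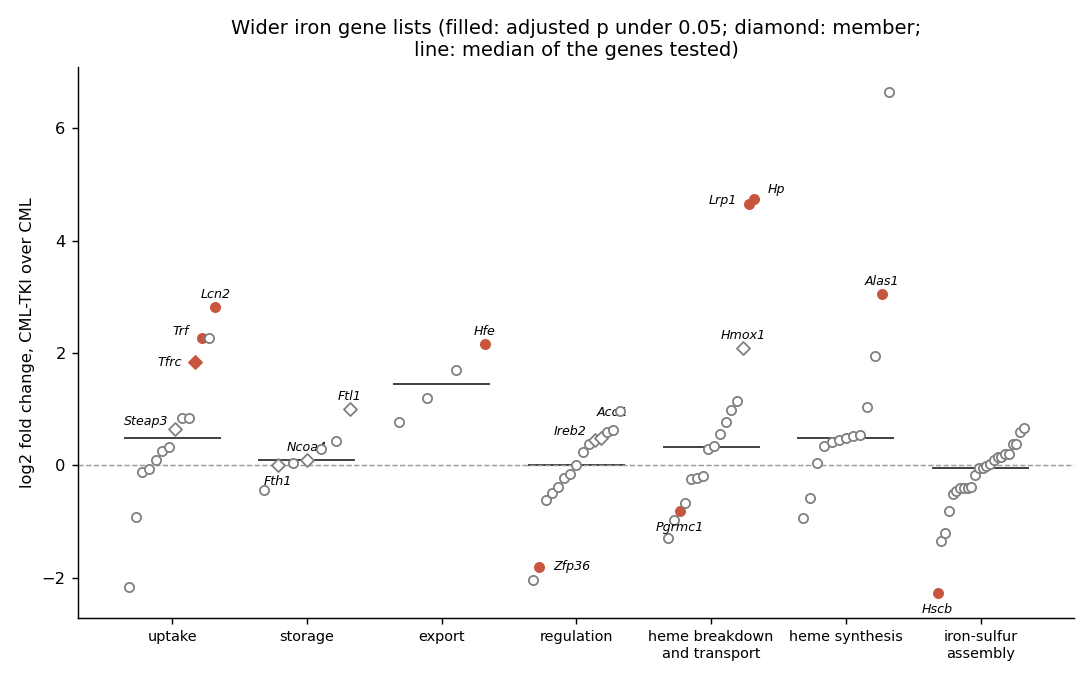
Log2 fold change (CML-TKI over CML) of the 93 tested genes of 7 iron lists, with a symbol for each gene, filled where the adjusted p is under 0.05, diamonds for the 8 genes described above, and a line at the list's median. Filled symbols number 3 of 14 in uptake, 3 of 16 in heme breakdown and transport and 0 of 7 in storage, against 10.2% of all genes tested, and differences between lists were not tested.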

How the data were processed

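The authors prepared Nextera XT libraries from total RNA, aligned paired reads to mm10 with STAR 2.6.1d and quantified RefSeq transcripts in Partek Flow 8.0; they deposited estimated counts per gene, not normalized. Whether counting used strand is not given in the sources used here. Columns were matched to labels by group and number. The estimated counts were rounded and analysed with edgeR 4.0.16 in R 4.3.3 (TMM, filterByExpr with a minimum count of 10 and minimum total of 15, robust quasi-likelihood test, Benjamini-Hochberg adjustment over 11937 genes, threshold 0.05). Log2 CPM used a prior count of 2. SE were derived as the fitted log2 change over the root of the F statistic. Ratios were tested by an exact permutation test over 70 relabelings. Nothing in the labels says that libraries came from separate mice, so p-values measure the spread between these libraries, which may be technical.

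The 8 genes, the wider lists and the marker lists were chosen with earlier results of these data known. The text names the 8 genes, every called gene of the wider lists, 9 preset iron genes, the 2 genes nearest in pattern to a called gene, the 3 marker genes of highest mean CPM in each marker list, the sorting genes and Rn45s; some marker genes under this rule are not reported here, and other names were chosen after values were seen. Transcript lengths and sequences came from GENCODE M21. Alternatives were DESeq2 1.42.0, limma 3.58.1 (voom with quality weights), other scalings and filters, thinning to the smallest library and fewer libraries. The edgeR step was tested on simulated data. Between 7.64% and 21.9% of a library's values were not whole. A count of 3 equals between 0.409 CPM (CML 1) and 3.29 CPM (CML-TKI 3), and this floor covers counting error only.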

Additional observations from a re-analysis of the deposited data

Results flagged for a closer look

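In 4 of 24 groups examined, 1 library stood apart from the remaining 3 by Dixon's test at 95%, which chance gives in about 1 in 20 groups. All 4 were the CML group and the library CML 5, and Fth1 enters both its own flag and that of its ratio with Ncoa4, so they are not separate results. Fth1 was 147 CPM in CML 5 with the next CML library at 86.1 CPM, and Ftl1 was 426 CPM there with the next at 234 CPM. Ireb2 was 71.1 CPM, with the next lowest CML library at 131 CPM. The log2 ratio of Ncoa4 to Fth1 was 0.68, with the next lowest at 1.86. CML 5 also held the largest share of Rn45s (38.3%) and the lowest Mki67 of the 8 libraries (52.7 CPM), and the part of either in these values was not tested.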

How the results depend on the processing

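Tfrc was called in 20 of 22 alternatives (log2 fold change 1.36 to 2.01). It lost its call with the replicate block over libraries 1 to 3 (1.36, edgeR adjusted p = 0.0987). It also lost it with CML 1 to 3 summed to 1 library (1.93, edgeR adjusted p = 0.131), a fit with fewer libraries. Deviations of libraries with the same number correlated at -0.042, 0.097 and 0.093, and those of the other pairs at -0.139 to 0.099. CML 1 to 3 differed little from each other, so these correlations cannot say whether the numbers pair libraries. Ftl1 was called in 5 of 22 and Hmox1 in 2 of 21. The number of the 8 genes called was 3 with DESeq2, 2 with limma-voom, 0 with the replicate block, 2 with libraries 1 to 3 by group, 2 without CML 5 and CML-TKI 1, 0 with CML 1 to 3 summed, and 1 to 2 when 1 library was left out (2 without CML 5, which adds Ftl1, and 2 without CML-TKI 4, which adds Hmox1). Wider iron genes called numbered 19 with DESeq2, 19 with limma-voom, 2 with the replicate block, 6 with libraries 1 to 3, 2 with CML 1 to 3 summed, and 5 to 20 when 1 library was left out (5 without CML 1, 2 or 3, 20 without CML-TKI 1; 0 lower without any 1 CML library). All genes called numbered 2157 with DESeq2, 2563 with limma-voom, 193 with the replicate block, 589 with libraries 1 to 3, 2362 without CML 5 and CML-TKI 1, 122 with CML 1 to 3 summed, and 505 to 2504 when 1 library was left out (505, 552, 570 and 808 without CML 1, 2, 3 or 5, 2504 without CML-TKI 1).

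Signs turned for genes that were never called. Fth1 was 0.17 with limma-voom, 0.065 with total counts, 0.28 with the replicate block, 0.32 with libraries 1 to 3, 0.39 without CML 5 and CML-TKI 1, and -0.18 to 0.25 when 1 library was left out. Ncoa4 was -0.052 with total counts without Rn45s, -0.0029 with upper quartile scaling, -0.0068 with at least 10 counts in every library, -0.10 with the replicate block, -0.025 with libraries 1 to 3, -0.27 without CML-TKI 3 and 4, and -0.084 to 0.28 when 1 library was left out. Steap3 was -0.30 without CML-TKI 3 and 4. Of the ratios, Tfrc to Fth1 was 1.08 with the replicate block (exact permutation p = 0.25, the smallest that 3 pairs allow), Ireb2 to Aco1 was 0.087 without CML-TKI 3 and 4 and -0.26 to 0.13 when 1 library was left out, and Ncoa4 to Fth1 was -0.20 without CML 5 and CML-TKI 1, -0.13 without CML-TKI 3 and 4, -0.39 with the replicate block, and -0.29 to 0.15 when 1 library was left out. The cause was not tested.

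Scaling moved the median of all genes by up to -0.12 (total counts without Rn45s). CML-TKI 3, with 1041552 counts, limits low genes most, and Hmox1 could not be tested after thinning.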
